A study of Mus musculus with 20 samples.

Results

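The genes described here handle heme and iron. They are heme oxygenase 1 (Hmox1), the transferrin receptor (Tfrc), the iron exporter ferroportin (Slc40a1), the ferritin heavy and light chains (Fth1 and Ftl1), haptoglobin (Hp) and hemopexin (Hpx). They were chosen by symbol, and 4 of the 7 (Hmox1, Tfrc, Fth1 and Hp) were among the 6025 genes of the deposited table. Slc40a1, Ftl1 and Hpx were not analysed here. All 4 genes in the table passed the minimum mean of 1 CPM over all libraries and were tested. Hp passed only through the injured groups, since each control lay under 1 CPM (highest 0.903), so its tests against controls are given as a description.

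RNA was sequenced from the renal cortex of wild-type C57BL/6 mice aged 8 weeks, with 1 library per mouse. There were 8 mock controls, 4 mice taken 24 h after ischemia-reperfusion injury (IRI, in which renal blood flow is stopped and restored), 4 mice taken 24 h after rhabdomyolysis (muscle breakdown) and 4 mice taken 72 h after the platinum drug cisplatin. The series text also mentions vehicle among the controls, and every control library is labelled mock, and the 2 kinds could not be told apart. The agent or procedure and the dose of each injury are not given in the sources used here, and injuries and harvest times differ together for cisplatin.

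Heme freed from myoglobin, hemoglobin or dying cells is cut open by heme oxygenase into biliverdin, carbon monoxide and iron, and the iron is stored in ferritin or exported by ferroportin. Transferrin receptor brings transferrin-bound iron into cells, whereas haptoglobin and hemopexin are plasma proteins that bind free hemoglobin and free heme. The proximal tubule takes up filtered heme proteins, and in rhabdomyolysis myoglobin released from muscle reaches it.

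Several of these transcripts carry the iron-responsive element, a stem-loop bound by iron regulatory proteins when iron is scarce. At the 5′ end of a transcript it blocks translation, and at the 3′ end of Tfrc it protects the transcript from decay. GENCODE M21 transcripts (GRCm38, sense strand) were searched for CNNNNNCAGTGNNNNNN, where the base after CAGTG was not G and the 5 bases on each side of the loop could pair, G with T included. The pattern was found in 222 of 21877 protein-coding genes (1.01%) and in 4 of the 7 genes chosen. The matches are shown because they set Fth1, Ftl1 and Slc40a1, with 1 match each before the coding sequence, apart from Tfrc, with 4 after it. The capitals mark the unpaired C and the 6-base loop.
Fth1 (chr19:9982732-9982761, + strand, before the coding sequence): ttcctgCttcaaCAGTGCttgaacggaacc
Ftl1 (chr7:45459778-45459807, - strand, before the coding sequence): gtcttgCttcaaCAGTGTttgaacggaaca
Slc40a1 (chr1:45925464-45925493, - strand, before the coding sequence): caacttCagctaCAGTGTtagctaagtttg
Tfrc, site 1 (chr16:32631219-32631248, + strand, after the coding sequence): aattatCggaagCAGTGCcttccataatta
Tfrc, site 2 (chr16:32631598-32631627, + strand, after the coding sequence): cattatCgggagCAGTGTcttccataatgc
Tfrc, site 3 (chr16:32631663-32631692, + strand, after the coding sequence): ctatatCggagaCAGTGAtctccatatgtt
Tfrc, site 4 (chr16:32631710-32631739, + strand, after the coding sequence): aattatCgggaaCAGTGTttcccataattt

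Values are CPM as deposited (read counts scaled to the size of the library), and 1 CPM corresponded to 6.07 to 10.6 reads, depending on the library. The table is a selection. In each of its 6025 genes, the group mean of 1 injury or more lay 1.5-fold or more away from that of the controls, so a gene in the table had to change somewhere, and its presence says nothing further. Library identifiers fell into 2 ranges, one holding controls 1 to 4 with IRI and the other holding controls 5 to 8 with rhabdomyolysis and cisplatin. The reference for an injury was always the 4 controls in its range, called its own controls here. IRI was tested against the other injuries only through the difference between effects. IRI levels set beside those of other injuries cross the ranges and are descriptions. Reads in the table ranged from 3.48 to 5.40 M per library. Summed levels of 10 proximal tubule markers were 35192 to 59871 CPM in controls, 10952 to 17609 in IRI, 9516 to 11261 in rhabdomyolysis and 5490 to 9351 in cisplatin. The sum of 6 of 7 loop of Henle and distal tubule markers was 2840 to 4923 CPM in controls, 528 to 1005 in IRI, 640 to 937 in rhabdomyolysis and 552 to 646 in cisplatin. For 3 of 6 collecting duct markers it was 297 to 484 in controls, 169 to 181 in IRI, 89.9 to 141 in rhabdomyolysis and 141 to 207 in cisplatin. For 4 of 8 endothelium and podocyte markers it was 202 to 490 in controls, 446 to 567 in IRI, 816 to 1127 in rhabdomyolysis and 505 to 683 in cisplatin. In bulk cortex, fewer cells of a type and less RNA per cell cannot be told apart.

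Hmox1, Tfrc and Fth1 were higher than in the controls after each injury, and the injury with the highest level differed between them. In CPM as deposited Hmox1 was highest in rhabdomyolysis and Tfrc and Fth1 in IRI, although under quantile normalization the Fth1 difference was larger in cisplatin (1.49) than in IRI (1.36). Of the 4 genes, 3 were called higher in IRI, against 40.6% of tested genes called higher and 40.1% called lower. All 4 were called higher in rhabdomyolysis (background 48.8% higher, 46.5% lower) and in cisplatin (47.8% higher, 44.0% lower), and none was called lower in any injury. These counts hold Hp, whose calls are a description because only the injured groups brought it past the minimum mean. With so many genes called, these counts show nothing particular to the 4 genes, and their sizes and order carry the description. Calls are limma's test with Benjamini-Hochberg adjustment over 5672 genes, at an adjusted p under 0.05.

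**Figure D1:**
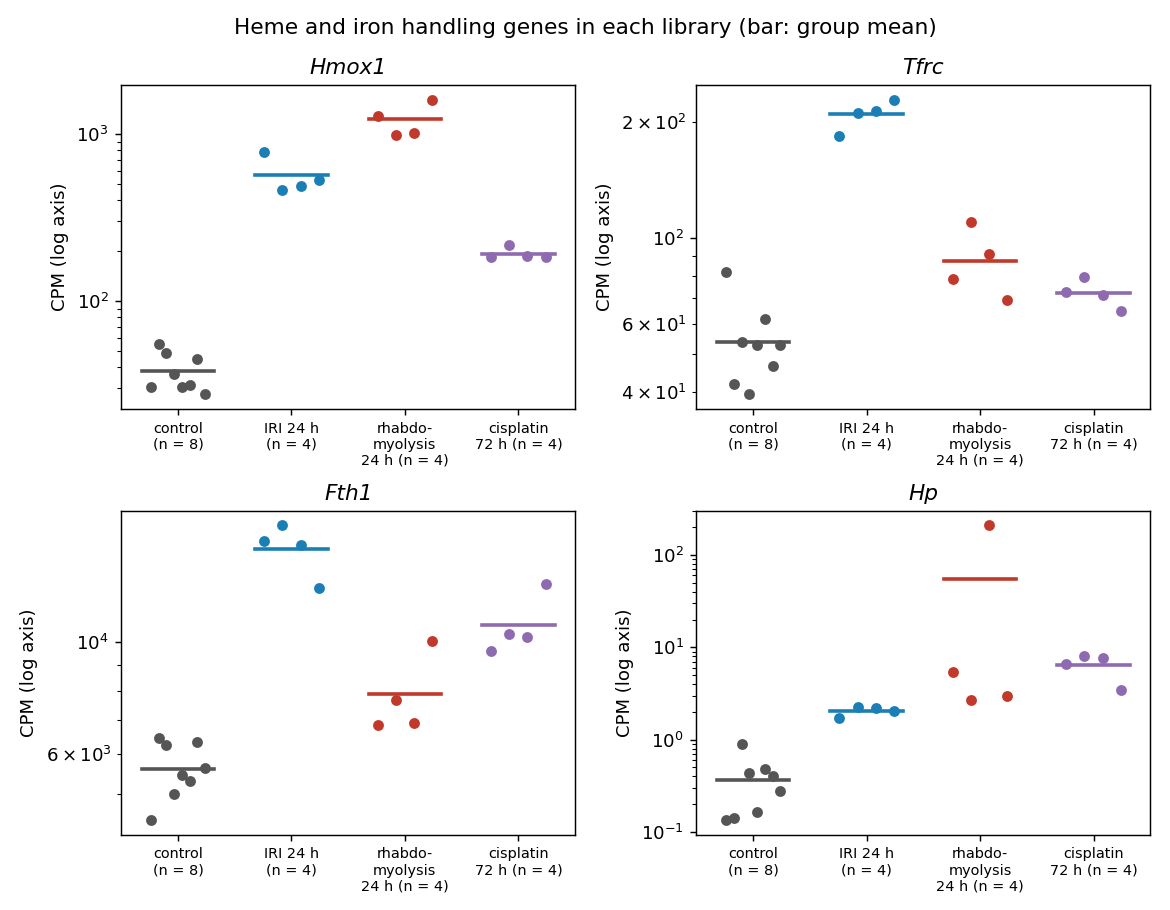
CPM of each gene in every library on log axes, with points for mice and bars for group means. Hmox1 is highest in the rhabdomyolysis libraries (986 to 1603 CPM), Tfrc and Fth1 in the IRI libraries (184 to 229 and 12788 to 16960 CPM), and 1 rhabdomyolysis library stands at 209 CPM for Hp.

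Hmox1, the inducible enzyme that degrades heme (GRCm38 chr8:75093621-75100589, + strand), stood at a lowest, median and highest value of 27.6, 33.8 and 54.9 CPM in the 8 controls. In the rhabdomyolysis mice it stood at 1287, 986, 1016 and 1603 CPM. In the IRI mice it stood at 783, 464, 489 and 528 CPM. Both 24 h injuries lay far above every control, and every rhabdomyolysis library lay above every IRI library. In the cisplatin mice at 72 h Hmox1 stood at 183, 215, 186 and 184 CPM, above all controls and below all libraries of the other injuries. Mean levels were 36.4-fold the own controls in rhabdomyolysis, 13.3-fold in IRI and 5.72-fold in cisplatin. The log2 differences were 5.14 ± 0.19 (SE, n = 4 against 4, limma adjusted p = 5.33e-16), 3.70 ± 0.19 (adjusted p = 5.51e-13) and 2.50 ± 0.19 (adjusted p = 9.7e-11).

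The order of Hmox1 held in tests of the differences themselves. Rhabdomyolysis exceeded cisplatin by 2.64 on the log2 scale (95% interval 2.24 to 3.04, limma adjusted p = 2.49e-10). The IRI effect was smaller than the rhabdomyolysis effect, with a difference of -1.44 (interval -2.0 to -0.87, adjusted p = 0.000182). It was larger than the cisplatin effect by 1.2 (interval 0.64 to 1.77, adjusted p = 0.00187). Leaving out any 1 library kept each of these calls. Myeloid cells are another source of heme oxygenase, and the summed level of 7 of 8 recruited myeloid markers in the table was 27.6 to 36.9 CPM in controls, 63.0 to 170 in rhabdomyolysis, 76.9 to 113 in IRI and 93.1 to 155 in cisplatin. The summed level of 7 of 8 resident macrophage markers was 75.3 to 109 CPM in controls, 68.1 to 103 in IRI, 90.7 to 197 in rhabdomyolysis and 176 to 229 in cisplatin. Of 6 tested resident macrophage markers, Cd68 and C1qa were called higher and Csf1r lower in IRI, and C1qa was not called there under quantile normalization (0.45, limma adjusted p = 0.107) or without control 3, control 4 or IRI mouse 1 (0.57, 0.50 and 0.42, limma adjusted p = 0.057, 0.0833 and 0.13). In each of rhabdomyolysis and cisplatin 5 of the 6 were called higher and Csf1r lower. Of all tested genes, 40.6% were called higher in IRI, 48.8% in rhabdomyolysis and 47.8% in cisplatin. The part of these cells in the Hmox1 rise was not tested.

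**Figure D2:**
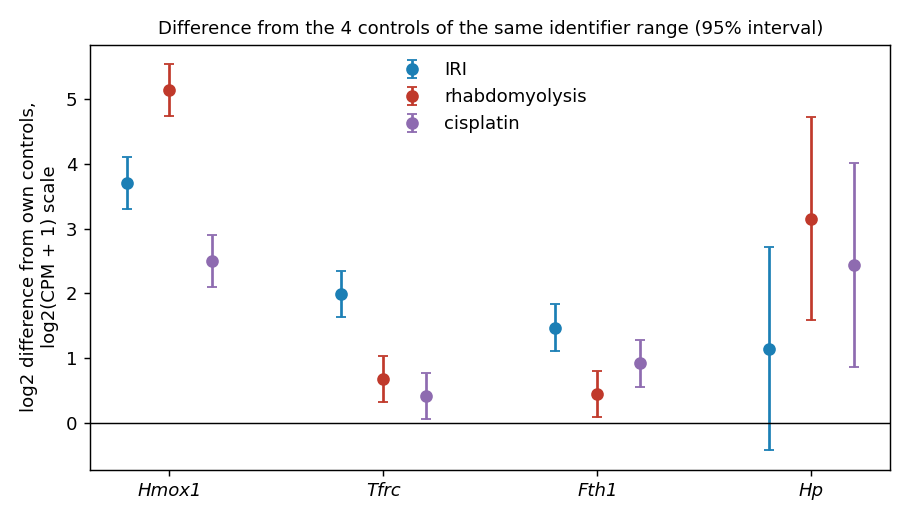
Log2 difference of each gene from the 4 controls of its identifier range, on the log2(CPM + 1) scale, with 95% intervals from limma. Hmox1 differs most in rhabdomyolysis (5.14) and Tfrc and Fth1 in IRI (1.99 and 1.47). The intervals of Hp are wide in each injury, with a spread shared by all groups, rhabdomyolysis mouse 3 included.

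Tfrc, the receptor for iron-loaded transferrin (chr16:32608920-32632794, + strand), stood at a lowest, median and highest value of 39.4, 53.0 and 81.9 CPM in the controls. In the IRI mice it stood at 184, 212, 214 and 229 CPM. These 4 libraries lay above all other libraries of the study. In the rhabdomyolysis mice it stood at 78.6, 110, 91.0 and 69.1 CPM, and in the cisplatin mice at 72.5, 79.6, 71.3 and 64.6 CPM. Both groups lay above controls 5 to 8, of which the highest stood at 61.9 CPM, and both overlapped the full control range through control 1 at 81.9 CPM.

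Mean Tfrc was 3.87-fold the own controls in IRI, with a log2 difference of 1.99 ± 0.17 (SE, limma adjusted p = 1.63e-09). It was 1.63-fold in rhabdomyolysis (0.68 ± 0.17, limma adjusted p = 0.000916) and 1.34-fold in cisplatin (0.42 ± 0.17, limma adjusted p = 0.0261). The cisplatin call was lost without control 7 (0.36, limma adjusted p = 0.0774) or without cisplatin mouse 2 (0.37, adjusted p = 0.0678), and adjusted p ranged from 0.00721 to 0.0774 over 15 alternatives. The IRI effect exceeded that of rhabdomyolysis by 1.31 (interval 0.80 to 1.82, limma adjusted p = 0.000164) and that of cisplatin by 1.57 (interval 1.06 to 2.08, limma adjusted p = 5.31e-05). Rhabdomyolysis and cisplatin, neighbours in the order, were not called different (0.25, interval -0.11 to 0.61, limma adjusted p = 0.224). Under quantile normalization that difference was 0.41, with an adjusted p of 0.0485.

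Fth1, the ferritin heavy chain that oxidizes iron for storage (chr19:9980598-9985098, + strand), was by far the most abundant of these transcripts. The controls had a lowest, median and highest value of 4448, 5549 and 6454 CPM. The IRI mice had 15810, 16960, 15505 and 12788 CPM. The cisplatin mice had 9579, 10344, 10227 and 12973 CPM, and the rhabdomyolysis mice had 6857, 7663, 6923 and 10051 CPM. Every injured library lay above every control. The IRI and cisplatin ranges touched, with the lowest IRI library just under the highest cisplatin library, and the rhabdomyolysis range reached into that of cisplatin through mouse 4.

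Mean Fth1 was 2.76-fold the own controls in IRI (log2 difference 1.47 ± 0.17 SE, limma adjusted p = 1.55e-07). It was 1.90-fold in cisplatin (0.92 ± 0.17, limma adjusted p = 4.76e-05) and 1.38-fold in rhabdomyolysis (0.45 ± 0.17, limma adjusted p = 0.0171). Under quantile normalization the differences were 1.36 in IRI (limma adjusted p = 1.15e-06), 1.49 in cisplatin (limma adjusted p = 1.62e-07) and 0.84 in rhabdomyolysis (limma adjusted p = 0.000183). Thus the injury with the largest Hmox1 difference had the smallest Fth1 difference, also on that scaling. The rhabdomyolysis call was lost without rhabdomyolysis mouse 4 (0.33, limma adjusted p = 0.0828; range 0.000183 to 0.0828 over 15 alternatives). GENCODE M21 names 2 Fth1 pseudogenes, so the authors' counting could have shared reads between them and Fth1.

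The Fth1 effect of IRI exceeded that of rhabdomyolysis by 1.02 (interval 0.51 to 1.53, limma adjusted p = 0.0017). Quantile normalization gave 0.52 with an adjusted p of 0.0943. The excess of IRI over cisplatin, 0.56, was not called (interval 0.05 to 1.07, limma adjusted p = 0.0909). It was called with all 8 controls as reference (0.50, adjusted p = 0.0198) and turned to -0.13 under quantile normalization, with adjusted p from 0.0198 to 0.718 over 23 alternatives. Rhabdomyolysis stood below cisplatin by a log2 difference of -0.46 (interval -0.82 to -0.10, limma adjusted p = 0.0291). That call was lost without rhabdomyolysis mouse 1, 2 or 3, without cisplatin mouse 4, and in edgeR's quasi-likelihood test (-0.35, adjusted p = 0.0599). It was also lost with the replicate number as a block, fitted on rhabdomyolysis and cisplatin alone (-0.46, limma adjusted p = 0.0525). Adjusted p ranged from 0.00446 to 0.0975 over 15 alternatives.

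Between injuries, the 4 genes split. Against cisplatin, rhabdomyolysis had 1 gene called higher (Hmox1) and 1 lower (Fth1), beside 21.4% and 32.7% of tested genes. The share of calls that were higher there was 39.6%, and 51.8% under quantile normalization. The IRI effect was called larger than the rhabdomyolysis effect for Tfrc and Fth1 and smaller for Hmox1, beside 28.6% larger and 23.4% smaller over all genes. It was called larger than the cisplatin effect for Hmox1 and Tfrc and smaller for none, beside 13.5% and 16.8%. In that last contrast the share of calls that were larger was 44.5%, and 55.3% under quantile normalization.

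Levels were also set side by side per length, as mean CPM per kilobase of merged exons. In controls Fth1 stood at 1618, Hmox1 at 21.8, Tfrc at 8.72 and Hp at 0.228 CPM per kilobase. In rhabdomyolysis Hmox1 stood at 699 and Fth1 at 2269 CPM per kilobase, whereas in IRI they stood at 323 and 4399. In cisplatin the values were 110 for Hmox1, 3107 for Fth1 and 11.6 for Tfrc. Fth1 was thus the highest of the 4 on this scale in all 4 groups.

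Hp encodes haptoglobin, made mainly by liver and also by fat and myeloid cells (chr8:109575128-109579172, - strand). It was near the limit of detection in the controls, with a lowest, median and highest value of 0.135, 0.338 and 0.903 CPM, or 1 to 7 reads per library. In the IRI mice it stood at 1.70, 2.26, 2.18 and 2.06 CPM. In the cisplatin mice it stood at 6.65, 8.07, 7.60 and 3.49 CPM. Both groups lay above every control, and cisplatin lay above IRI without overlap. In the rhabdomyolysis mice Hp stood at 5.39, 2.66, 209 and 2.95 CPM, so that mouse 3 was far above the other mice of its group, of which mouse 1 alone lay within the cisplatin range.

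Controls 5 to 8 held only 9 Hp reads together, so ratios are given with a 95% interval for counting error alone, which does not include differences between mice. The summed level in cisplatin was 19.2 times that of the own controls (9.93 to 42.4), and in IRI 5.01 times (2.69 to 10.2). In rhabdomyolysis it was 173 times (91.0 to 379) with all 4 mice and 11.2 times (5.68 to 25.1) without mouse 3. The tests against controls are a description, since only the injured groups brought Hp past the minimum mean. On the log2(CPM + 1) scale, which understates changes of such low genes, the difference was 3.15 ± 0.76 in rhabdomyolysis (limma adjusted p = 0.000489), and without mouse 3 it was 1.77 (adjusted p = 7.42e-07). It was 2.44 ± 0.76 in cisplatin (limma adjusted p = 0.0047) and 1.15 ± 0.76 in IRI, which was not called (limma adjusted p = 0.161) but was called with a pseudocount of 0.1 (2.36, adjusted p = 0.0179). The SE is the same for each injury because the spread was fitted over all groups together, rhabdomyolysis mouse 3 included. The IRI mice themselves spanned 1.70 to 2.26 CPM. IRI adjusted p ranged from 0.000578 to 0.343 over 16 alternatives. Only the lowest came from a fit without rhabdomyolysis mouse 3, on IRI and its own controls alone with the replicate number as a block. In a two-sided exact permutation test, Hp differed from its own controls in each injury, IRI included, at p = 0.0286, the smallest value that 4 against 4 libraries allow.

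Rhabdomyolysis and cisplatin were not called different for Hp (0.71, interval -0.85 to 2.28, limma adjusted p = 0.438). Without rhabdomyolysis mouse 3 the sign turned, to -0.67 with an adjusted p of 0.0264, while edgeR on the reads of all mice gave 3.20 (adjusted p = 0.00517). Neither the IRI and rhabdomyolysis effects (-2.0, interval -4.22 to 0.22, limma adjusted p = 0.12) nor the IRI and cisplatin effects (-1.29, interval -3.51 to 0.93, adjusted p = 0.382) were called different. The shared spread put rhabdomyolysis mouse 3 into the interval for IRI and cisplatin too, and no alternative left that mouse out there. That result therefore does not measure the spread of the IRI and cisplatin mice, whose Hp values did not overlap. The IRI and rhabdomyolysis effects were called different with all 8 controls (-1.95, adjusted p = 0.0229) and without rhabdomyolysis mouse 2 (-2.57, adjusted p = 0.0475), and without mouse 3 their difference was -0.62 (adjusted p = 0.127), within a range of 0.0229 to 0.181 over 23 alternatives.

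Some adipocyte genes were also higher in rhabdomyolysis mouse 3 than in the other mice of its group. Of 11 adipocyte markers 6 were in the table, and within the group all 6 were highest in that mouse, as were 21% of all tested genes. The list was written after these values were seen, so this count is a description and supports nothing. Cidec, a lipid droplet protein, stood at 18.5 CPM there and at 0.567, 0.493 and 2.38 CPM in the other rhabdomyolysis mice, with 0 to 0.16 CPM in controls 5 to 8. It was also above every control in the other injuries, at 4.33 to 12.4 CPM in IRI and 6.42 to 14.1 in cisplatin, so it was the other rhabdomyolysis mice that stood low among the injured. Car3, an abundant fat and muscle carbonic anhydrase, stood at 49.0 against 8.60, 4.43 and 5.56 CPM, and so below all of controls 5 to 8 (60.2 to 115 CPM). The fatty acid binding protein Fabp4 stood at 205 against 97.2, 60.7 and 87.2 CPM, above those controls at 31.9 to 48.1 CPM. The desaturase Scd1 stood at 182 against 49.9, 47.1 and 53.1 CPM, just past the same controls at 117 to 177 CPM. The summed list spanned 116 to 472 CPM in rhabdomyolysis, 239 to 384 in controls, 92.2 to 122 in IRI and 192 to 218 in cisplatin. The defining genes Adipoq, Plin1, Retn, Cfd and Lep were not analysed here. The part of fat tissue in the Hp value was not tested.

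**Figure D3:**
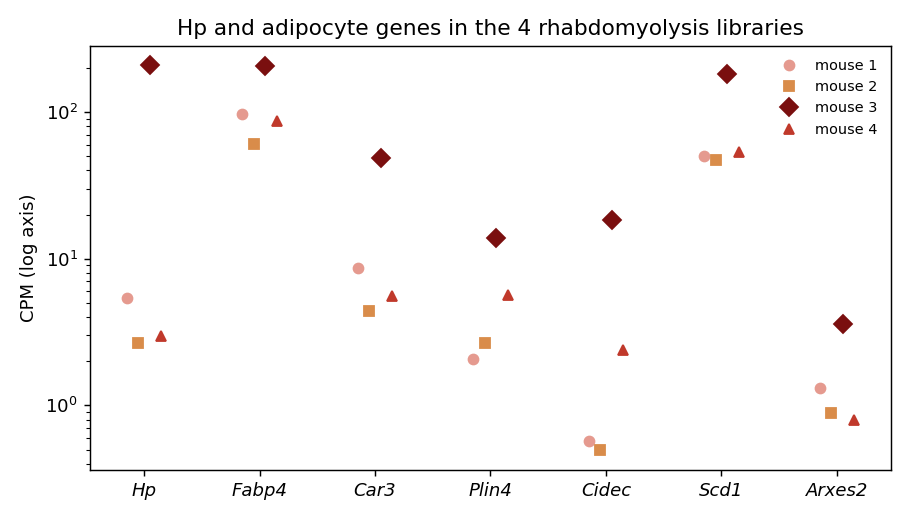
CPM on a log axis of Hp and the 6 adipocyte genes of the table in the 4 rhabdomyolysis mice, 1 symbol per mouse. Mouse 3 holds the highest value of all 7 genes, with Hp at 209 CPM against 2.66 to 5.39 CPM in the others.

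Hepatocyte markers moved in opposite directions. The summed level of the 4 hepatocyte markers in the table, of 9 listed, was 108 to 172 CPM in rhabdomyolysis, 77.8 to 163 in controls, 207 to 272 in IRI and 118 to 166 in cisplatin. Fibrinogen beta chain (Fgb) carried much of that sum in the injured groups, at 147 to 233 CPM in IRI, 34.7 to 135 in rhabdomyolysis and 28.9 to 73.3 in cisplatin, against 1.10 to 4.46 in controls. Transthyretin (Ttr) and apolipoprotein A-II (Apoa2) were called lower in each injury, and Ttr stood at 35.2 to 129 CPM in controls and 6.30 to 12.1 in rhabdomyolysis. The 4th gene, transferrin (Trf), was called higher in rhabdomyolysis and cisplatin. Albumin (Alb), the defining hepatocyte transcript, was not analysed here. The part of liver-type expression in the Hp value was not tested.

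The genes most like each member over the 20 libraries, by Pearson correlation of log2(CPM + 1), are given as a description, since libraries of a group share their injury. For Hmox1 they were Asns (0.988), Lrrc59 (0.986) and Akt1 (0.981). For Tfrc they were Cnih4 (0.93), Timd2 (0.925) and Hells (0.923). For Fth1 they were the heme transporter Slc48a1 (0.963), the quinone reductase Nqo1 (0.957) and Cbr3 (0.955). For Hp they were Itih4 (0.909), Nnmt (0.86) and Vcan (0.847). Within the 12 injured libraries, after the mean of the own controls was subtracted, Itih4 (0.919) and Nnmt (0.875) again stood among the first 3 for Hp. The others of the first 3 were Cds2 (0.978), Adm2 (0.969) and Mthfd1l (0.965) for Hmox1, Farsb (0.969), Sfxn5 (0.967) and Fkbp4 (0.966) for Tfrc, Dqx1 (0.962), Nanp (0.96) and Epn1 (0.959) for Fth1, and Htra3 (0.902) for Hp.

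Around these members, 65 further genes of heme and iron handling were listed by role, of which 35 were in the table and 34 were tested. Of the 34, 13 were called higher and 15 lower in IRI, 17 and 17 in rhabdomyolysis, and 16 and 17 in cisplatin, shares near those of all tested genes (40.6% higher and 40.1% lower in IRI, 48.8% and 46.5% in rhabdomyolysis, 47.8% and 44.0% in cisplatin). The counts of each list are read against the same shares, and no difference between lists was tested. The median log2 difference over all tested genes was 0.08 in IRI, 0.31 in rhabdomyolysis and 0.30 in cisplatin.

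Of the 9 listed enzymes that build heme, 6 were tested and 3 were not analysed here. Of the 6, 4 were called lower in IRI and all 6 in each of rhabdomyolysis and cisplatin, with none called higher, beside 40.1%, 46.5% and 44.0% of all tested genes called lower. Their medians were -0.67, -1.34 and -0.80. Those not called in IRI were Cpox (-0.16, limma adjusted p = 0.246) and Alas2 (-0.69, limma adjusted p = 0.0512). Uros, which closes the porphyrin ring, had a control range of 20.0 to 32.7 CPM and ranges of 8.35 to 11.6 in IRI, 5.00 to 9.03 in rhabdomyolysis and 9.49 to 10.1 in cisplatin. It fell by 1.39, 1.82 and 1.37 on the log2 scale. Alad, the second enzyme of the pathway, had 76.7 to 120 CPM in controls and only 27.4 to 34.4 in rhabdomyolysis, where it fell by 1.67, against 0.48 in IRI and 0.73 in cisplatin. Ppox, which makes protoporphyrin, fell by 1.23 in rhabdomyolysis, 0.73 in IRI and 0.78 in cisplatin. The sums of proximal tubule, loop of Henle and distal tubule, and collecting duct markers given above were lower too, and that of endothelium and podocyte markers was higher in rhabdomyolysis and cisplatin. The part of these shifts in the falls was not tested.

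Alas2, the erythroid form of the first heme synthesis enzyme, followed another order. It had 9.62 to 33.6 CPM in controls, 8.13 to 17.1 in IRI and 3.55 to 6.36 in rhabdomyolysis. In the cisplatin mice it stood at 0.233, 0.101, 0 and 0.194 CPM, or 2, 1, 0 and 2 reads. Cisplatin was thus far below every other group, and rhabdomyolysis exceeded it by 2.41 (limma adjusted p = 1.45e-06), a size that depends on the pseudocount. Its transcript also carries the searched stem-loop, across a splice junction before the coding sequence.
Alas2 (spliced, ends at chrX:150547458 and chrX:150552150, + strand): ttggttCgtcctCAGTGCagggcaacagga
Globins, which dominate the erythroid list, moved with it. Hba-a1 had 371 to 1420 CPM in controls, 329 to 507 in IRI, 141 to 226 in rhabdomyolysis and 3.46 to 11.6 in cisplatin. The summed erythroid list, which holds Alas2 itself and has 7 of 8 genes in the table, was 1181 to 2936 CPM in controls, 1051 to 1676 in IRI, 387 to 493 in rhabdomyolysis and 15 to 30.2 in cisplatin. The anion exchanger Slc4a1 of the same list, which is also a collecting duct marker, ran the other way between rhabdomyolysis and cisplatin, at 1.70 to 4.44 against 6.56 to 10.3 CPM (log2 difference -1.16, limma adjusted p = 0.0016). The other 6 were called higher in rhabdomyolysis than in cisplatin, beside 21.4% of all tested genes. Whether the Alas2 values reflect red cells and reticulocytes in the tissue was not tested.

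**Figure D4:**
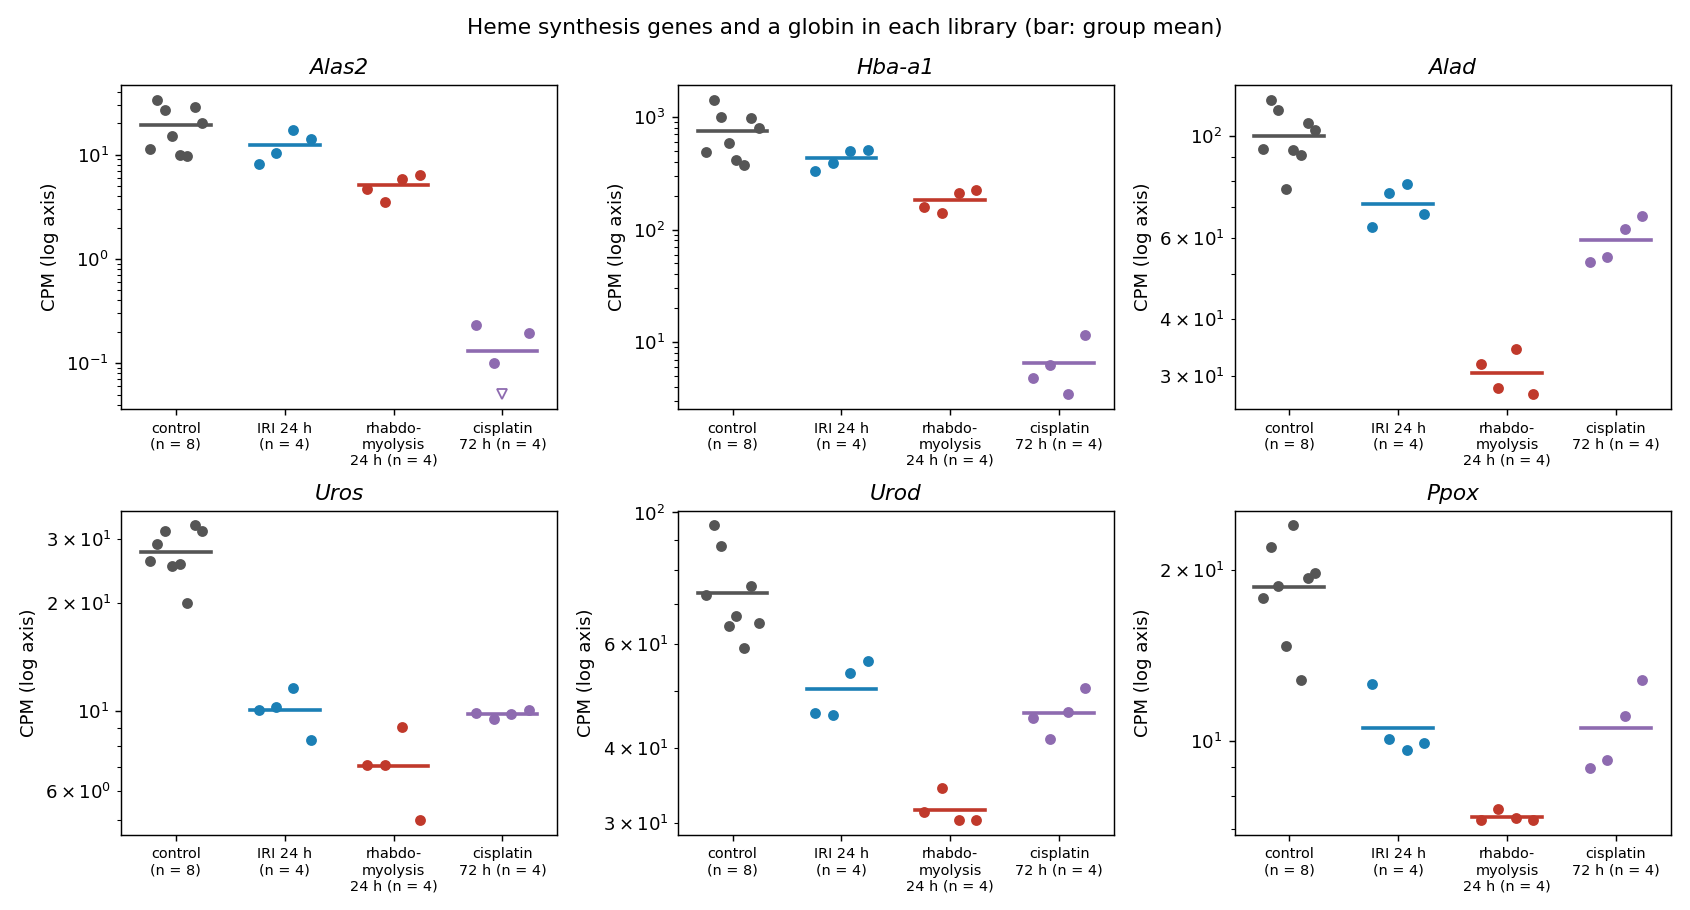
CPM on log axes of 5 heme synthesis genes and the globin Hba-a1 in every library, with bars for group means and an open triangle for a library at 0. Alas2 and Hba-a1 are lowest in cisplatin (0 to 0.233 and 3.46 to 11.6 CPM), whereas Alad, Uros, Urod and Ppox are lowest in rhabdomyolysis.

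Genes of heme transport and breakdown were called in both directions. Of 14 listed, 9 were tested, with 5 higher and 3 lower in IRI and 6 higher and 3 lower in each of rhabdomyolysis and cisplatin. The medians were 0.63, 0.90 and 0.51. Blvrb, a biliverdin reductase that acts after heme oxygenase, had 12.8 to 19.5 CPM in controls, 57.8 to 85.3 in rhabdomyolysis, 57.3 to 63.8 in IRI and 32.1 to 46.3 in cisplatin. Mfsd7b, the older symbol of the heme exporter Flvcr1, rose by 1.95 in rhabdomyolysis, 1.52 in cisplatin and 1.16 in IRI. Lrp1, a receptor for heme-hemopexin complexes, rose by 1.70, 1.19 and 0.80. The endothelium and podocyte marker sum was likewise highest in rhabdomyolysis, and its part in the Lrp1 values was not tested. These genes were picked by their rhabdomyolysis difference, and others of the list, named after their values were seen, had another order. Slc48a1, which moves heme out of endosomes and lysosomes, rose by 1.10 in IRI, 0.51 in cisplatin and 0.40 in rhabdomyolysis. Nfe2l2, the transcription factor NRF2, rose by 1.58 in cisplatin, 1.13 in rhabdomyolysis and 0.63 in IRI. In contrast, Slc46a1, a folate and heme carrier, fell from 39.0 to 71.5 CPM in controls to 9.08 to 11.1 in rhabdomyolysis, 16.0 to 26.6 in cisplatin and 23.3 to 28.8 in IRI.

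Iron uptake genes were also called in both directions. Of 15 listed, 12 were tested, with 5 higher and 5 lower in IRI and 7 higher and 5 lower in each of the others, and medians of 0.34, 0.55 and 0.97. These counts and medians are a description, since Lcn2 and Steap4, with control means of 0.924 and 0.769 CPM, passed the minimum mean only through the injured groups. Lcn2, a siderophore-binding protein used as a kidney injury marker, had 0.414 to 1.42 CPM in controls, 940 to 2289 in rhabdomyolysis, 487 to 1185 in cisplatin and 411 to 825 in IRI. The metalloreductase Steap1 rose from 2.25 to 8.30 CPM to between 35.1 and 65.6 CPM over all injured mice. Steap4, another metalloreductase, had 0.329 to 1.13 CPM in controls, 5.62 to 12.4 in cisplatin and 1.97 to 12 in rhabdomyolysis, where the highest value was again mouse 3. In IRI it had 1.18 to 2.13 CPM and was not called (0.37, limma adjusted p = 0.283). The endocytic receptors Cubn and Lrp2, which take up filtered proteins in the proximal tubule, fell most in rhabdomyolysis, by 2.91 and 2.46. Cubn stood 1.83 log2 units lower in rhabdomyolysis than in cisplatin (limma adjusted p = 6.96e-08). Both receptors are among the 10 proximal tubule markers, most of which went the other way. Of the 10, 6 were called higher in rhabdomyolysis than in cisplatin and 4 lower, these receptors included, with a median of 0.69. Of all tested genes, 21.4% were called higher there and 32.7% lower. Named after their values were seen, the metalloreductase Steap2 rose by 1.36 in IRI, 1.19 in cisplatin and 0.41 in rhabdomyolysis, and the metal transporter Slc39a8 fell by 2.44, 1.49 and 1.45. The Steap2 call in rhabdomyolysis was lost without rhabdomyolysis mouse 2 (0.30) or mouse 3 (0.31). The Lrp2 difference in IRI, called at -0.60, turned to 0.04 under quantile normalization.

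**Figure D5:**
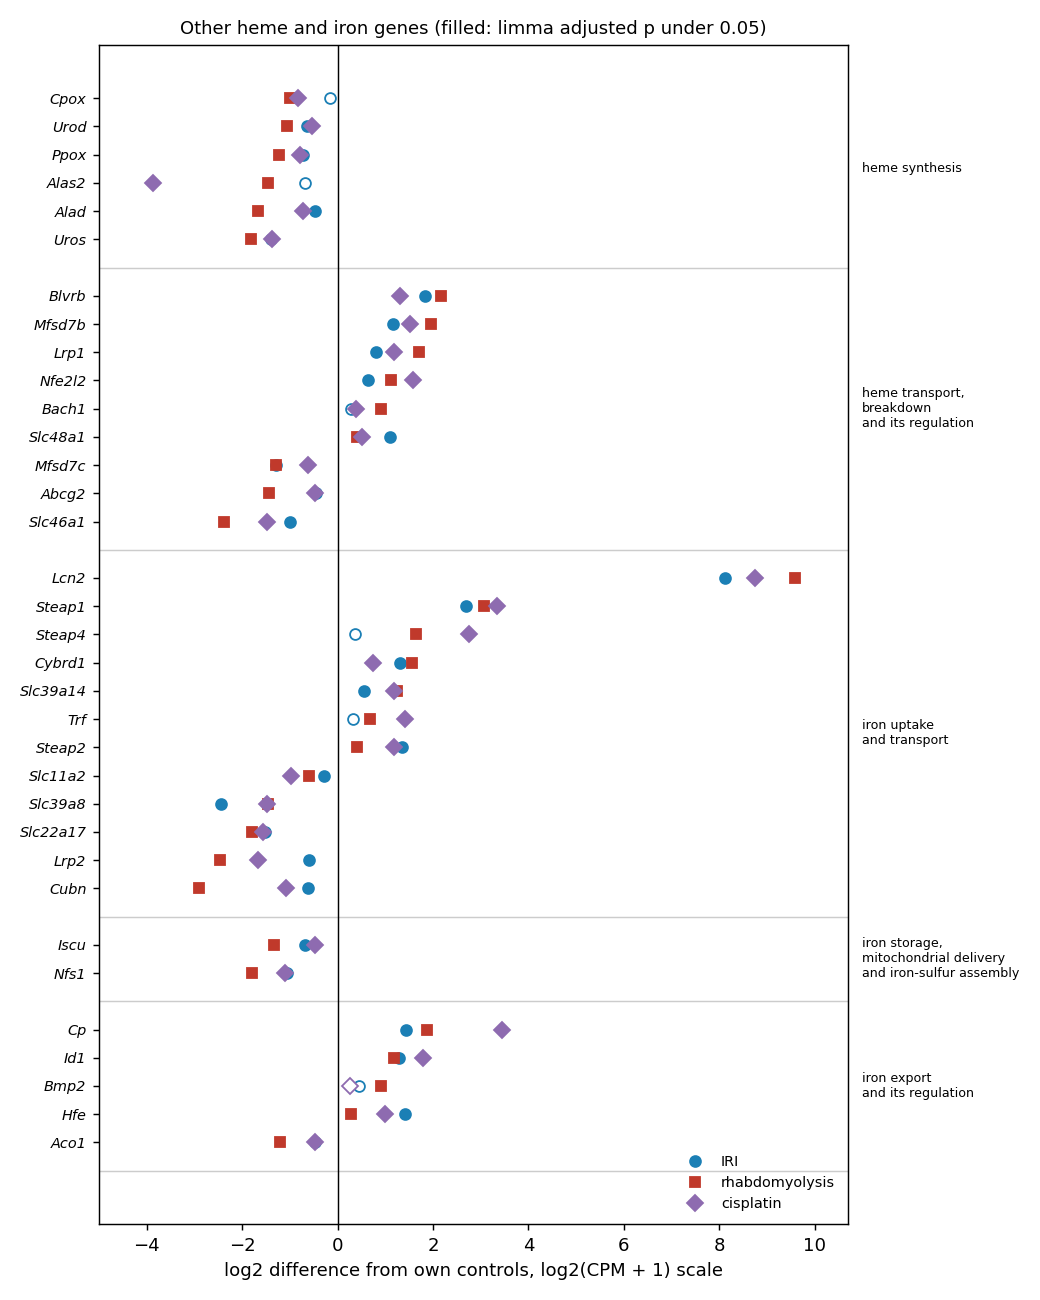
Log2 difference from the own controls of the 34 tested heme and iron genes outside the 7 chosen, grouped by role, with filled symbols for limma adjusted p under 0.05. All 6 heme synthesis genes lie left of 0 in every injury (Cpox in IRI turned to 0.11 under quantile normalization), Lcn2 lies farthest right (9.60 in rhabdomyolysis), and Cubn is the lowest uptake gene in rhabdomyolysis (-2.91).

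Only 2 of 11 genes listed for storage and iron-sulfur assembly were in the table, the cysteine desulfurase Nfs1 and the scaffold Iscu, and both were lower after all injuries. Nfs1 fell by 1.79 in rhabdomyolysis, 1.07 in IRI and 1.11 in cisplatin, and Iscu fell by 1.34, 0.69 and 0.48. Of 16 genes of iron export and its regulation, 5 were tested, with 3 higher and 1 lower in IRI and cisplatin and 4 higher and 1 lower in rhabdomyolysis. Cp, the ferroxidase ceruloplasmin that acts beside ferroportin, had 21.8 to 47.1 CPM in controls and 212 to 387 in cisplatin, above the 88.1 to 116 in rhabdomyolysis and 66.2 to 129 in IRI. Cp in rhabdomyolysis differed from cisplatin by -1.57 (limma adjusted p = 3.23e-06). Id1, a target of the BMP signal that also controls hepcidin, rose by 1.80 in cisplatin, 1.28 in IRI and 1.19 in rhabdomyolysis. Bmp2, one of its ligands, rose by 0.91 in rhabdomyolysis and was not called in IRI (0.45) or cisplatin (0.26), beside the same endothelium and podocyte sums, whose part was not tested. Hfe, a partner of the transferrin receptors, was also named after its values were seen. It rose by 1.41 in IRI, 1.00 in cisplatin and 0.29 in rhabdomyolysis, a call lost without control 6 (0.25) or rhabdomyolysis mouse 4 (0.20) and with all 8 controls (0.15). Aco1, which encodes iron regulatory protein 1, one of the proteins that bind such stem-loops, fell by 1.2 in rhabdomyolysis and by 0.47 in each of IRI and cisplatin.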

How the data were processed

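Per the labels' protocols, polyadenylated RNA of renal cortex was sequenced from stranded libraries. The submitters' processing notes name FastQC, Bowtie2 2.1.0, RSEM 1.2.15 and edgeR and the build GRCm38. The authors deposited 1 table of counts normalized to CPM (read counts scaled to library size), a unit read from the values and not stated in the file. Each library had 1 step of which 100% of its values were multiples (tolerance 0.01). This gave whole reads and effective library sizes of 6.07 to 10.6 M. For cisplatin mouse 2 that step is close to 0.1 CPM, so rounding could mimic it there.

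From these values log2(CPM + 1) was fitted with limma 3.58.1 in R 4.3.3, over all 20 libraries in 5 cells (controls of each identifier range and 3 injuries), with moderation along the mean-variance trend. A minimum mean of 1 CPM kept 5672 genes for testing and left out 353. Adjustment followed Benjamini and Hochberg within this selected table. The 2-sided exact permutation test compared 4 with 4 libraries. The animals are separate mice by their labels.

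The genes, lists and tests were chosen with earlier results of these data known, and the adipocyte list after values were seen. Genes outside the chosen 7 are named if among the 4 largest rhabdomyolysis differences called in their list, if called in opposite directions in a pair of injuries, or if they differed by at least 1 (log2) between rhabdomyolysis and cisplatin. The rule also names the 3 most correlated genes per member. The adipocyte genes, Hba-a1, Urod, Cpox, Cd68, C1qa, Csf1r, Fgb, Ttr, Apoa2, Trf, Slc4a1, Slc48a1, Nfe2l2, Steap2, Slc39a8 and Hfe were added after their values were seen. Alternatives were a pseudocount of 0.1, other minimum means, 75th percentile and quantile scaling, all 8 controls, edgeR 4.0.16 on recovered reads, a replicate block, and each library left out. The replicate block was fitted on the compared groups alone, for IRI against its controls and for rhabdomyolysis against cisplatin. Left-out libraries were always from the groups of the contrast. For genes and counts outside the 7, alternatives were chosen after seeing the data. Same-numbered libraries did not deviate together (correlations from -0.207 to 0.325), so the numbers do not pair them.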

Additional observations from a re-analysis of the deposited data

Results flagged for a closer look

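Over 180 groups of libraries of the genes with values given, 17 had a single library standing apart by Dixon's ratio (its gap to the nearest library divided by the range), where chance gives about 1 in 20, or 9. For Hp these were rhabdomyolysis mouse 3 (ratio 0.987, 209 CPM with the next at 5.39) and control 3 (0.549, 0.903 with the next at 0.481 CPM). For Hmox1 it was cisplatin mouse 2 (0.909, 215 with the next at 186 CPM). For Ppox they were IRI mouse 1 (0.838, 12.6 with the next at 10.1 CPM) and rhabdomyolysis mouse 2 (0.844, 7.59 with the next at 7.32 CPM). For Steap4 it was rhabdomyolysis mouse 3 (0.847, 12 with the next at 3.5 CPM), the mouse that also stood apart for Hp. For Nfe2l2 it was control 2 (0.663, 115 with the next at 94.9 CPM). Among marker genes these were IRI mouse 1 for C1qa (0.83, 26.4 with the next at 16.9 CPM), IRI mouse 4 for Trf (0.905, 69.1 with the next at 31.8 CPM) and control 4 for Slc4a1 (0.859, 129 with the next at 52 CPM). Among the adipocyte genes, chosen after their values in rhabdomyolysis mouse 3 were seen, that mouse stood apart for Scd1 (0.955, 182 with the next at 53.1 CPM), Car3 (0.906, 49 with the next at 8.6 CPM) and Cidec (0.895, 18.5 with the next at 2.38 CPM). In other groups these were IRI mouse 1 for Car3 (0.953, 11.9 with the next at 27.9 CPM), IRI mouse 3 for Scd1 (0.894, 27.8 with the next at 15.3 CPM), and IRI mouse 4 (0.851, 2.86 with the next at 1.6 CPM) and cisplatin mouse 2 (0.836, 19.1 with the next at 11.6 CPM) for Plin4.

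Of the 4 heme and iron genes, 3 differed between injuries in limma's test of the difference, on the log2 scale. Hmox1 differed between rhabdomyolysis and cisplatin by 2.64, between the IRI and rhabdomyolysis effects by -1.44 and between the IRI and cisplatin effects by 1.2. Tfrc differed between the IRI and rhabdomyolysis effects by 1.31 and between the IRI and cisplatin effects by 1.57. Fth1 differed between rhabdomyolysis and cisplatin by -0.46 and between the IRI and rhabdomyolysis effects by 1.02.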

How the results depend on the processing

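Every Hmox1 difference kept its direction and its call under all alternatives run, as did Tfrc and Fth1 in IRI, Tfrc in rhabdomyolysis and Fth1 in cisplatin. The number of the 4 genes called between rhabdomyolysis and cisplatin was 2, and 1 to 2 with 1 library left out, being 1 without rhabdomyolysis mouse 1 or 2 or cisplatin mouse 4. With a replicate block, from numbers not known to pair the mice and on the compared groups alone, it was 1. The same setting called Hp in IRI (1.15, limma adjusted p = 0.000578; range 0.000578 to 0.343 over alternatives), at the estimate of the main fit. That fit also left out the rhabdomyolysis libraries, mouse 3 included, so the block and the smaller fit cannot be told apart. With all 8 controls as 1 group, 2636 genes were called between the IRI and cisplatin effects, against 1716. Signs turned under quantile normalization for Lrp2 (0.04) and Cpox (0.11) in IRI, Bmp2 in cisplatin (-0.13) and Fth1 between the IRI and cisplatin effects (-0.13), and without rhabdomyolysis mouse 3 for Hp between rhabdomyolysis and cisplatin (-0.67, in a range of -0.67 to 1.28 with 1 library left out). The cause of these changes was not tested. Quantile normalization moved the median of all tested genes from 0.31 to 0.14 in rhabdomyolysis and from 0.30 to 0.03 in cisplatin, and 75th percentile scaling moved it to 0.44 in rhabdomyolysis and to 0.19 from 0.08 in IRI. Depth limits Hp, at 1 to 7 reads per control, and Alas2 in cisplatin, at 0 to 2 reads.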
